A study of Mus musculus with 5 samples.

Results

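Monoacylglycerol lipase (MAGL, encoded by Mgll) was, according to the labels, the gene removed in the comparison described here, in which 1 hippocampal library labelled 5xFAD global MAGL-KO was set against 1 library labelled 5xFAD. Its nuclei are those with at least 500 detected genes: 5176 in 5xFAD and 7480 in the one labelled global MAGL-KO, together 12656 of 28099 such nuclei over the 5 libraries of the series. The series profiled RNA and open chromatin in the same nuclei of mouse hippocampus (10x Multiome), with 1 library for each of its 5 groups: WT, 5xFAD, 5xFAD global MAGL-KO, and the conditional knockouts 5xFAD neuron MAGL-KO and 5xFAD astrocyte MAGL-KO. All 5 carry the batch name v3. 5xFAD is a transgenic line that expresses human amyloid precursor protein and presenilin with familial Alzheimer's disease mutations from a neuronal Thy1 promoter, so both libraries compared carry the transgenes, and only WT lacks them. The labels do not state age, sex, number of animals pooled, the Cre driver of either conditional knockout, or which stretch of Mgll was deleted. Where 5 values are given below they follow the order WT, 5xFAD, then the astrocyte, the neuron and the global MAGL-KO.

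MAGL is the serine hydrolase that breaks down most of the brain's 2-arachidonoylglycerol (2-AG), the endocannabinoid that neurons release from the postsynaptic side and that lowers transmitter release through the cannabinoid receptor Cnr1. The same reaction supplies arachidonic acid for prostaglandin synthesis in brain, which is why the enzyme has been studied in models of neuroinflammation and amyloid disease. Diacylglycerol lipases (Dagla, Daglb) make 2-AG, while Abhd6 and Abhd12 hydrolyse a smaller share of it.

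After removal of likely doublets 4962 nuclei of 5xFAD and 7032 of the library labelled global MAGL-KO were used, with medians of 16756 and 14759 UMIs (unique molecular identifiers, each 1 captured RNA molecule). The pair shared 59 cell barcodes, within the 29 to 63 shared by the 10 pairs of libraries. Each library held nuclei with Xist UMIs, as in females, and nuclei with Y-linked UMIs, as in males. Of nuclei called by at least 2 UMIs of one kind and fewer than 2 of the other, Xist nuclei were 42.3% in 5xFAD and 60.0% in the one labelled global MAGL-KO. The sex makeup therefore differed between the libraries, and the gene, list and region ratios that the text turns on were, where the nuclei sufficed, also computed within Xist nuclei and within Y nuclei. Each library is the only one of its group, so no test between groups was possible. The intervals given are exact 95% intervals of counting error only and carry nothing about the spread between animals. Gene lists were chosen with earlier results of these data known, so list counts set beside all genes are descriptions and no tests.

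Clusters were called excitatory by 10 markers that include Slc17a7, or by separate lists of granule, CA1 or CA3 markers. Excitatory neurons made up 70.1% of 5xFAD nuclei (3477) and 73.5% (5171) of those of the one labelled global MAGL-KO. Within them were 1365 and 2044 dentate granule, 872 and 1322 CA1 and 230 and 384 CA3 nuclei. Inhibitory neurons were 9.59% and 8.13% (476 and 572 nuclei). Oligodendrocytes made up 6.09% [5.44, 6.79] of 5xFAD and 3.06% [2.67, 3.49] of the other library (302 and 215 nuclei), and their precursors numbered 82 and 90 nuclei. There were 85 and 95 microglia. Astrocytes were few, with 45 and 32 nuclei. Classes are named from clusters and mean nuclei resembling that cell type, and 9.45% and 11.9% of nuclei lay in clusters left unnamed by thresholds set after the data were seen. Among these, cluster n6 (190 and 325 nuclei) scored highest for inhibitory, n11 (98 and 257) for CA3 and n26 (50 and 109) for CA1 neurons. They stayed unnamed because many of their nuclei had both Xist and Y-linked UMIs. The class counts and shares above leave them out. The summed level of the class's own markers was close in both libraries for oligodendrocytes (25748 and 26040 UMIs per 1000000 of the class, CPM), microglia (19357 and 20580 CPM) and astrocytes (29649 and 31342 CPM), and higher in inhibitory neurons of the library labelled global MAGL-KO (11937 and 15394 CPM).

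Mgll RNA was not lower in the labelled global knockout. Over all nuclei Mgll (ENSMUSG00000033174, chr6:88724412-88828360, plus strand, mm10) was at 74.3, 77.7, 92.5, 92.6 and 80.4 CPM, from 8695 UMIs in 5xFAD and 11290 in the one labelled global MAGL-KO, a log2 ratio of 0.05 [0.01, 0.09]. WT was lowest, and the library labelled global MAGL-KO lay between 5xFAD and the libraries labelled as conditional knockouts. Astrocytes held the highest level, with 493, 356, 483, 403 and 430 CPM (log2 ratio 0.27 [-0.26, 0.79]). Microglia held 326, 111, 142, 154 and 100 CPM (-0.14 [-1.08, 0.77]), with the 4 5xFAD libraries all below WT. In oligodendrocytes, which held the least, Mgll was at 16.6, 25, 58.6, 41.5 and 36.5 CPM, from only 24 and 20 UMIs in the pair. Inhibitory neurons held 81.3 and 74.8 CPM in the pair and precursors 132 and 126 CPM. In dentate granule neurons the library labelled global MAGL-KO was higher, at 107 against 83.1 CPM (0.36 [0.27, 0.45]; 0.36 in Xist and 0.30 in Y nuclei). A UMI from outside the deleted stretch checks nothing, and the labels do not name that stretch. The group is therefore called the library labelled global MAGL-KO throughout. Nor was Mgll lower in the conditional libraries in the class their labels name: that labelled neuron MAGL-KO had 91.5 CPM in excitatory neurons, where 5xFAD had 73.3, and that labelled astrocyte MAGL-KO 483 CPM in astrocytes, where 5xFAD had 356.

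**Figure D1:**
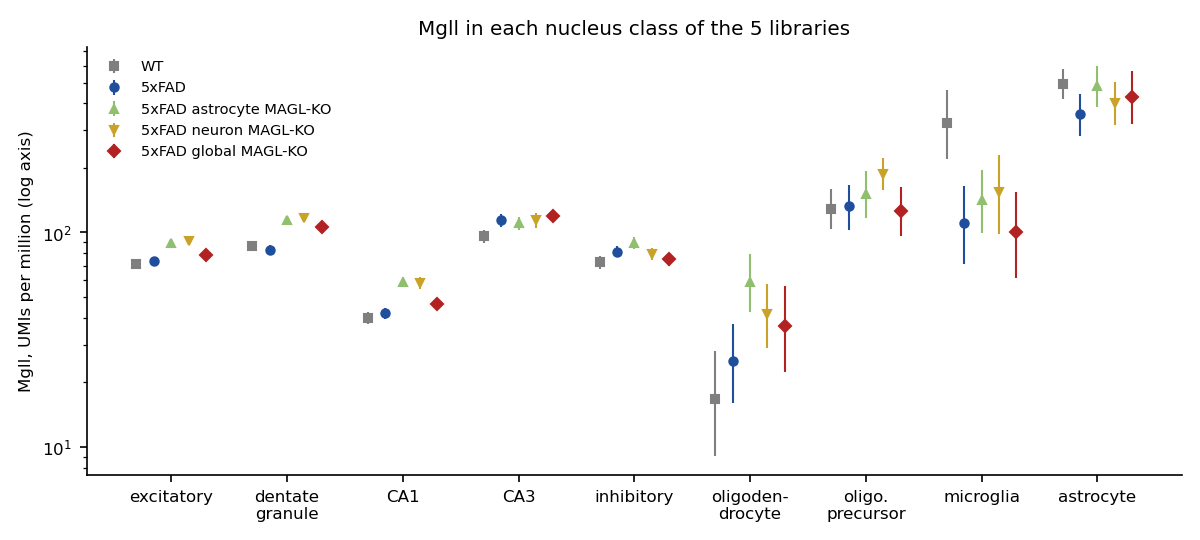
Mgll level (CPM, UMIs per 1000000 of the class, log axis) in each class of nuclei and each of the 5 libraries; bars are exact 95% intervals of counting error. Astrocytes sit highest, at 356 CPM in 5xFAD and 430 CPM in the library labelled global MAGL-KO; in no class was that library far below 5xFAD.

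Chromatin at Mgll was also open in both libraries. The peak lists of the pair, called separately in each library, were merged into regions; 151331 regions (76.0%) were listed in both, 18618 in 5xFAD alone and 29185 in the other library alone. Ratios were taken only for regions listed in both, as transposase cut sites per 1000000 within those regions (cut-site CPM). The Mgll promoter region, chr6:88724143-88725003, had 30.5 and 28.2 cut-site CPM over all nuclei (log2 ratio -0.08). Of 17 regions over the gene body and promoter 13 were listed in both libraries. In excitatory neurons their ratios were all below 0, from -0.41 to -0.05 with a median of -0.25, and none was 2-fold lower. Over all regions of that class the median was 0.02, and 52.6% were more open. Over all nuclei the 13 ratios ran from -0.34 to -0.04 with a median of -0.18, beside a median of 0.03 over all regions. The intronic region chr6:88726542-88727382 was listed in every library except the one labelled global MAGL-KO, chr6:88743533-88744473 only in WT and 5xFAD, and chr6:88776655-88777531 only in the library labelled global MAGL-KO. Any region that is not listed has no count, which differs from a count of 0.

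The genes of 2-AG turnover had ratios on both sides of 0. In excitatory neurons all 10, Mgll among them, were measured (at least 20 UMIs over the pair and a mean of 10 CPM), 5 higher and 5 lower, with a median log2 ratio of 0.01 beside 0.03 over all 8004 genes measured. Dagla (0.01) and Abhd6 (0.00) were level. In inhibitory neurons 8 of 10 were lower, 4 with an interval below 0 beside 15.2% of all genes (median -0.13; 0.02 in Xist and -0.24 in Y nuclei). All 9 measured in oligodendrocytes were higher (median 0.28), but only 1 had an interval above 0, beside 5.3% of all genes there. In excitatory neurons the phospholipases that feed diacylglycerol to the pathway were lower, Plcb4 by a log2 ratio of -0.41 and Plcb1 by -0.15. The cannabinoid receptor Cnr1 was at 43.9 and 57.0 CPM (0.38 [0.31, 0.44]; 0.38 in Xist and 0.31 in Y nuclei). Its binding partners Cnrip1 (0.22) and Sgip1 (0.03) were also at or above the level of 5xFAD, so that all 3 measured members had a counting interval above 0, as had 34.8% of all genes of the class. In inhibitory neurons the same 3 members had a median of 0.05, which was the ratio of Cnr1, and 1 had an interval above 0. Inhibitory markers in excitatory nuclei summed to 512 and 614 CPM, and their part in the Cnr1 ratio was not tested. Of 26 eicosanoid genes 3 were measured in excitatory neurons, with a median of -0.24 (-0.09 in Xist and -0.07 in Y nuclei). The transgene's promoter gene Thy1 was at 41.6, 179, 211, 269 and 187 CPM, high in all 4 libraries labelled 5xFAD and low in WT.

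Few genes of the excitatory class reached a 2-fold difference. Of the 8004 measured genes 18 were 2-fold or more higher (0.225%) and 3 were 2-fold or more lower (0.0375%); those 3 were Cfap54, the unnamed gene model Gm17167 and the Y-linked Ddx3y. In CA1 neurons 0.217% were higher and 0.0766% lower (17 and 6 of 7833), and in CA3 neurons 0.254% and 0.107% (19 and 8 of 7475). In the excitatory class 6 genes were 2-fold higher and 2 were 2-fold lower in Xist nuclei and again in Y nuclei.

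The highest ratios that held in the nuclei of both sexes belonged to genes of several kinds. Dcn, encoding the matrix proteoglycan decorin, was at 16.9, 8.44, 23.9, 27.2 and 26.4 CPM (log2 ratio 1.65 [1.52, 1.78]), lowest in 5xFAD and above it in all 3 libraries labelled MAGL-KO. It was higher in both sexes' nuclei (1.57 in Xist, 1.49 in Y). Mthfs, encoding methenyltetrahydrofolate synthetase of the folate cycle, was at 24, 25.1, 24.7, 24 and 77.4 CPM (1.63 [1.55, 1.70]; 1.69 and 1.56). Here 4 libraries were level and only the one labelled global MAGL-KO stood apart, and the share of excitatory nuclei with a Mthfs UMI went from 30.3% to 57.9% (median depth 17011 and 14676 UMIs). With each nucleus thinned to 1000 UMIs, which left out 2 and 16 shallower nuclei, the shares were 2.42% and 6.96%. Pxdn, encoding peroxidasin, which cross-links basement membrane collagen, went from 37.6 to 75.8 CPM (1.01), Tmem163, encoding a zinc transporter, from 15.0 to 29.3 CPM (0.97), Cpne7 from 64.8 to 121 CPM (0.90) and Tcerg1l from 12.8 to 23.6 CPM (0.88). These 4 differed by 0.76 or more on the log2 scale in Xist and in Y nuclei.

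Other genes at the top of the excitatory list had larger ratios in Xist than in Y nuclei. The prolactin receptor Prlr was at 13.3, 11.4, 20.1, 20.6 and 28.1 CPM (1.30), with 1.68 in Xist nuclei and 0.22 in Y nuclei. Plpp4, a phospholipid phosphatase gene, was at 17.2, 13.6, 27.6, 48.5 and 39.8 CPM (1.55; 2.10 in Xist, 0.32 in Y). Megf11 (1.13; 1.59 and 0.37), the carboxypeptidase gene Cpa6 (1.58; 1.98 and 0.59), the fibulin gene Fbln2 (1.45; 1.73 and 0.07) and proenkephalin, Penk (1.28; 2.06 and -0.02), had the same form. For all 6 genes both libraries labelled as conditional knockouts were also above 5xFAD. Xist nuclei were 57.9, 42.5, 58.7, 81.2 and 58.3% of the excitatory nuclei called for sex, lowest in 5xFAD, and the part of this was not tested. The excitatory nuclei of the pair were unevenly spread over clusters: granule cluster n3 held 20 of 3477 in 5xFAD and 672 of 5171 in the other library, cluster n15 45 and 269, and cluster n22 44 and 167; the part of this in the excitatory ratios was not tested.

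At the lower end Cfap54, a cilium-associated gene, was at 138, 123, 42.4, 33.7 and 46.7 CPM (-1.40 [-1.45, -1.35]; -1.31 in Xist, -1.52 in Y), with WT and 5xFAD high and all 3 libraries labelled MAGL-KO low. The promoter region of Cfap54, chr10:93081111-93081945, was nearly as open in both libraries (log2 ratio -0.08). Gm17167 followed the same division over all nuclei, at 46.0, 42.8, 0.214, 19 and 0.406 CPM; it was named after its values were seen, and as an unnamed model its reads may be shared with a copy or an overlapping gene. Ide, encoding insulin-degrading enzyme, which also cleaves amyloid beta, was at 61.1, 82.0, 64.2, 83.4 and 47.2 CPM (-0.80 [-0.85, -0.74]), lowest in the library labelled global MAGL-KO. Pdzrn3, a ubiquitin ligase gene, went from 199 to 117 CPM (-0.77), where 5xFAD was the high library among the 5. The collagen chain gene Col11a1 (-0.91; -0.51 in Xist, -1.26 in Y) and the kinase gene Vrk2 (-0.91; -1.27 and -0.49) were lower by somewhat more than Ide. The homeobox gene Mkx (-0.69; -1.30 and -0.21), the vesicular glutamate transporter gene Slc17a6 (-0.63; -0.87 and -0.54), the metabotropic glutamate receptor gene Grm4 (-0.63; -0.89 and -0.44) and the splicing regulator gene Nova1 (-0.54; -0.57 and -0.52) were lower by less.

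In excitatory neurons most promoter regions of the higher genes were more open. Of the 18 genes 2-fold higher in excitatory neurons 15 had a measured promoter region, 20 regions in all, of which 17 were more open, with a median log2 ratio of 0.30 beside -0.04 over all 17836 promoter regions, of which 37.0% were more open. The promoter region of Mthfs, chr9:89210956-89211802, went from 5.07 to 8.26 cut-site CPM on the scale of all peaks of a library (0.74 [0.52, 0.96]). Those of Dcn (0.65), Fbln2 (0.49) and Cpa6 (0.84 and 1.25 over 2 regions) were also more open, while those of Plpp4 (0.08) and Penk (0.20) had intervals that included 0. The promoter region of Slc17a6, a lower gene, had a ratio of -0.72.

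In dentate granule neurons more genes passed 2-fold than in CA1 or CA3 neurons over all nuclei. Within Y nuclei 19 genes did, fewer than the 26 in CA3, while CA1 had 8 higher and 8 lower. Without cluster n3, described below, 16 genes did, fewer than the 23 in CA1 and 27 in CA3. Of 7845 measured genes 64 were 2-fold or more higher (0.816%) and 4 lower (0.051%): Cfap54, Gm17167, Lgr6 and Calcrl. The highest 5 by rule were Col27a1, Lhfp, a member of the tetraspan LHFPL family, Col6a1, Fbln2 and Npy. Col27a1, encoding a fibrillar collagen chain, was at 0.175, 0.151, 5.84, 14.5 and 27.8 CPM, from 3 UMIs in 5xFAD and 675 in the one labelled global MAGL-KO (log2 ratio 7.52 [5.97, 9.81]). A Col27a1 UMI was found in 0.220% of 5xFAD and 12.2% of the other library's granule nuclei, at a median depth of 13787 and 11242.5 UMIs, beside 3.97% and 2.33% of oligodendrocytes, at 2854.5 and 2253 UMIs. With nuclei thinned to 1000 UMIs, leaving out 1 and 15 granule nuclei, the granule shares were 0 of 1364 and 46 of 2029 nuclei (2.27%), and 7 of 299 and 1 of 212 oligodendrocytes had a UMI. Lhfp was at 5.60, 7.05, 49.5, 140 and 78.1 CPM (3.47), Col6a1 at 2.01 and 20.4 CPM in the pair (3.34), Fbln2 at 3.32 and 28.5 (3.10) and neuropeptide Y, Npy, at 3.22 and 21.4 (2.73). In all of these the 3 libraries labelled MAGL-KO were high, and WT and 5xFAD were low.

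These differences lay in Xist nuclei. Of the granule nuclei 526 were Xist and 755 Y in 5xFAD, against 1071 and 729 in the other library. In Xist nuclei Lhfp went from 6.79 to 143 CPM, and in Y nuclei from 7.57 to 4.13 CPM. Fbln2 went from 3.80 to 51.9 CPM in Xist nuclei and from 3.29 to 1.09 CPM in Y nuclei. Col6a1 went from 2.99 to 37.4 CPM and from 1.34 to 0.652 CPM. Col27a1 was at 0.272 and 52.6 CPM in Xist nuclei, with 1 UMI in the Y nuclei of each library. Npy differed in both, from 3.53 to 36.0 CPM and from 3.12 to 5.22 CPM. Over all genes 163 of 7846 were 2-fold higher (2.08%) and 91 lower (1.16%) in Xist nuclei, against 13 of 7781 higher (0.167%) and 6 lower (0.0771%) in Y nuclei, and 3 genes were 2-fold higher and 2 lower in both. Rspo2, Sema3e and Foxp2, chosen after their values were seen, went from 2.72 to 58.5, from 12.9 to 178 and from 3.53 to 37.3 CPM in Xist nuclei. Mthfs instead was higher in both kinds of granule nuclei, at 18.9 and 60.1 CPM in Xist and 19 and 66.4 CPM in Y nuclei.

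**Figure D2:**
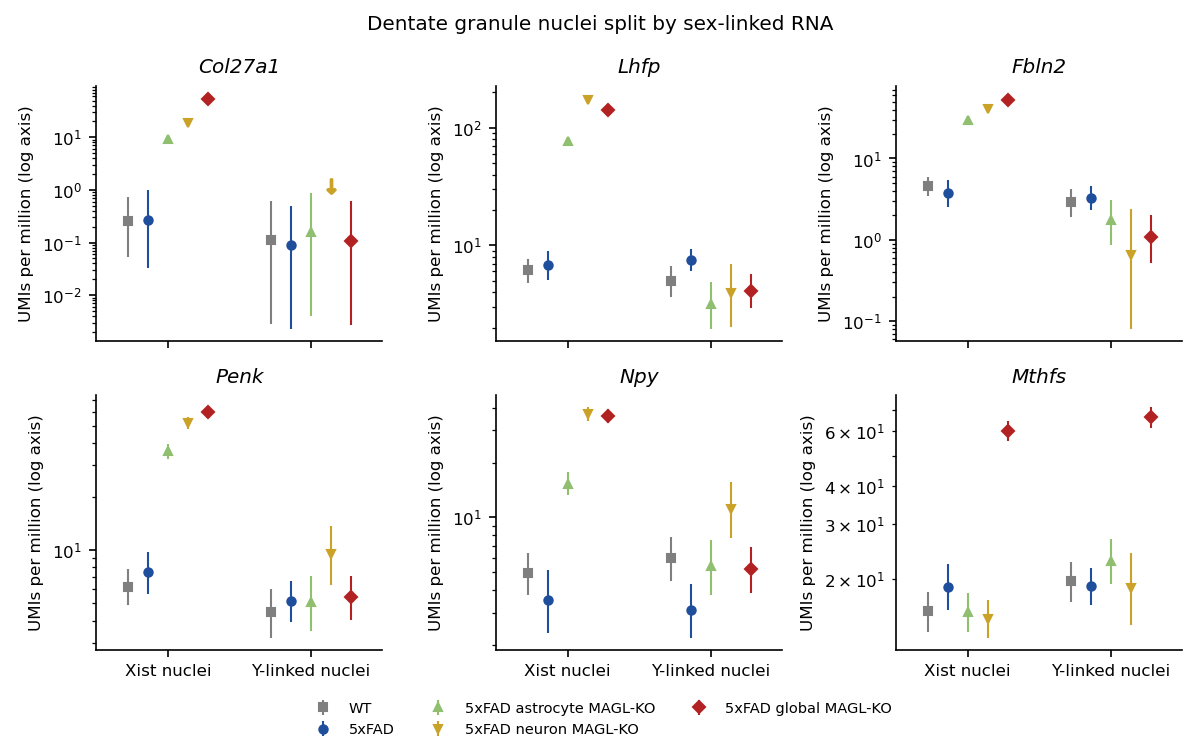
Levels of 6 genes (CPM, log axis) in dentate granule nuclei with Xist UMIs and with Y-linked UMIs, in each of the 5 libraries; bars are exact 95% counting intervals, and arrows mark 0 UMIs, drawn at the upper counting limit. Lhfp and Fbln2 are high only in Xist nuclei of the libraries labelled MAGL-KO (143 and 51.9 CPM in the one labelled global), whereas Mthfs is high in both kinds of nuclei of the library labelled global MAGL-KO.

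The granule nuclei of the pair were not spread over the same clusters. Cluster n3 held 20 of 1365 granule nuclei (1.47%) in 5xFAD, against 672 of 2044 (32.9%) in the library labelled global MAGL-KO. Without that cluster 16 genes in place of 68 were past 2-fold. The part that this cluster, or the animals behind each sex, has in the differences was not tested, and the libraries, animals and genotypes cannot be told apart. Markers of other cells were present in granule nuclei at levels below the granule markers. Those of astrocytes summed to 1095 and 950.3 CPM, of oligodendrocyte precursors to 788 and 917, of oligodendrocytes to 389 and 374, of inhibitory neurons to 290.1 and 358 and of microglia to 135 and 142 CPM. The 10 vascular markers summed to 1.81 and 2.80 CPM, with Col1a2 and Slco1a4 at 0, and the 6 Cajal-Retzius markers to 1.86 and 12.3 CPM, with Lhx5 and Lhx1 at 0. The 8 choroid plexus and ependyma markers summed to 35.3 and 72.2 CPM, with Tmem212 and Otx2 at 0. Their part in the result was not tested. The 10 granule markers summed to 14308 and 12442 CPM.

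At the lower end of the granule list Cfap54 was at 139, 127, 29.9, 20.8 and 30.7 CPM (-2.05 [-2.17, -1.93]; -1.72 in Xist, -2.30 in Y). Lgr6, a receptor gene for R-spondins, was at 24.2, 27.6, 7.54, 32.4 and 9.47 CPM (-1.54), with -1.54 in Y nuclei and -0.23 [-0.74, 0.28] in Xist nuclei. The receptor gene Calcrl was at 15.8 and 7.17 CPM (-1.14), the splicing factor gene Wbp11 at 47.9 and 25 CPM (-0.93) and the syntrophin gene Sntg2 at 43.9 and 25 CPM (-0.81).

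Most of the measured immediate early genes were lower in the excitatory class and in CA1 neurons. Immediate early genes are switched on within minutes of synaptic activity and encode transcription factors such as Junb and Nr4a1 and the synaptic protein Arc. In excitatory neurons 8 of the 20 listed were measured and 7 had an interval below 0, where 20.5% of all genes did, with a median log2 ratio of -0.42. Junb went from 16.7 to 11.8 CPM (-0.50), Arc from 13.9 to 10.0 CPM (-0.47), Nr4a3 from 48.0 to 34.9 CPM (-0.46), Nr4a1 from 38.3 to 27.9 CPM (-0.46) and Nr4a2 from 38.9 to 30.9 CPM (-0.33). Jun was the exception (0.08). In Xist nuclei the median was -0.46 and in Y nuclei -0.22. In CA1 neurons 8 of 9 measured members had an interval below 0 beside 14.6% of all genes, with a median of -0.28, and in CA3 neurons all 3 did beside 9.39%, with a median of -0.68; with each nucleus thinned to 1 fixed depth the CA3 median was -0.08. In dentate granule neurons only 2 were measured and neither had an interval off 0 (Jun -0.06, Btg2 0.10); these rest on other members than the CA1 and CA3 values, and the difference between cell types was not tested. Promoter regions of these genes had ratios from -0.29 at Npas4 to 0.00 at Arc, where the median of all promoter regions was -0.04 and the lowest 5% lay below -0.30.

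Later activity-induced genes, which encode secreted factors and synaptic proteins, were higher in dentate granule neurons. Of 10 measured members of the 17, 4 were 2-fold or more higher and 7 had an interval above 0, where 24.7% of all genes did, with a median of 0.56. The members were chosen with earlier results of these data known, so these counts describe the list and do not test it. Npy (above) and Penk, at 6.34 and 34.8 CPM (2.45), led the list, followed by the metalloprotease gene Pappa, at 6.79 and 26.7 CPM (1.98), and the sorting receptor gene Sorcs3, at 84.4 and 194 CPM (1.20). Bdnf, encoding the neurotrophin, was at 77.3 and 122 CPM (0.66; 1.28 in Xist, -0.52 in Y nuclei). Over the list the median was 1.06 in Xist nuclei, -0.15 in Y nuclei and -0.03 without cluster n3. The 2 lower members, Homer1 and Scg2 (-0.31), both had an interval below 0, as had 15.9% of all genes. Homer1, a postsynaptic scaffold gene, went from 177 to 126 CPM (-0.49; -0.43 and -0.45), and in the excitatory class as a whole it was at 534, 545, 289, 309 and 399 CPM (-0.45), lower in all 3 libraries labelled MAGL-KO than in WT and 5xFAD.

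**Figure D3:**
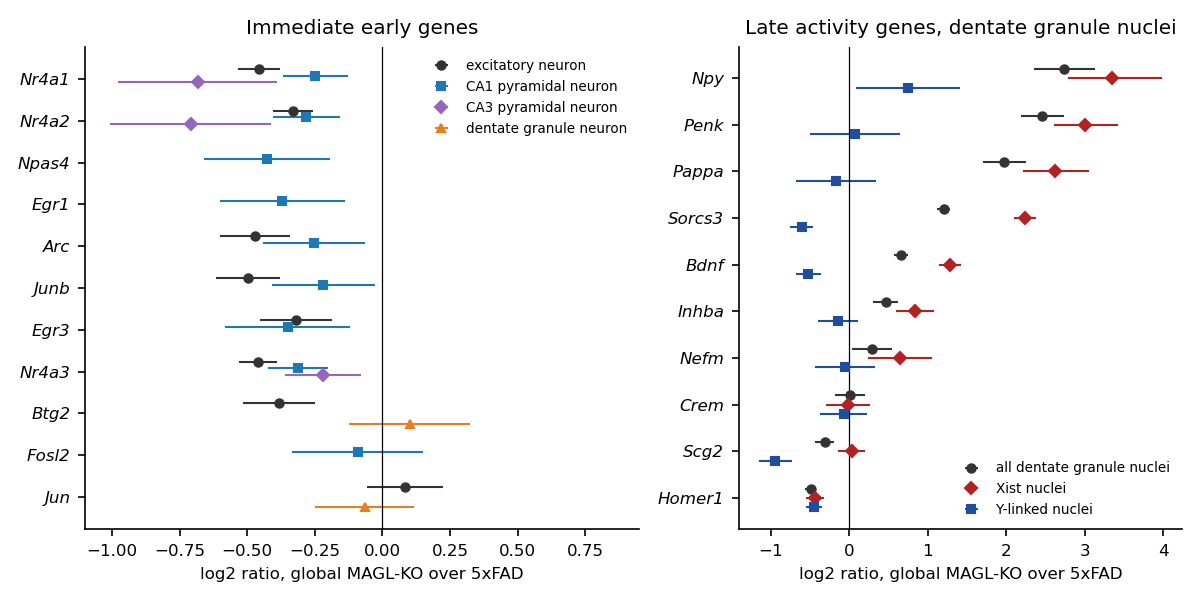
Log2 ratio of the library labelled global MAGL-KO over 5xFAD for activity genes; left, immediate early genes in excitatory, CA1, CA3 and dentate granule neurons; right, later activity genes in granule neurons over all, Xist and Y nuclei; bars are 95% counting intervals. Most immediate early genes lie below 0 in the excitatory class (median -0.42), of which 2 were measured in granule neurons, and Penk, Npy, Pappa and Sorcs3 lie above 1 in all granule nuclei.

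Open chromatin differed at more regions in granule neurons than in the excitatory class as a whole. Of 111042 regions with at least 50 cut sites over the pair, 3.95% were 2-fold or more open than in 5xFAD and 1.41% 2-fold or more closed, against 1.05% and 0.194% of 150967 regions in the whole class. With at least 200 cut sites, 655 of 48760 granule regions were 2-fold more open and 75 more closed, against 938 and 132 of 127660 in the whole class, so that much of this gap lay in regions with few cut sites. In Xist granule nuclei the shares were 9.75% and 4.9%, and in Y nuclei 2.1% and 1.82%. The promoter region of Npy had 4.22 and 7.15 cut-site CPM (0.79; 1.21 in Xist, -0.08 in Y) and that of Penk a ratio of 0.62 (1.27 and -0.50). Within 50000 bases of Col27a1 18 of 19 regions were more open in Xist nuclei, with a median of 0.84, and 4 of 12 in Y nuclei, with a median of -0.11, where 49.8% and 51.0% of all regions were more open. Around Pappa the medians were 1.39 (9 regions) and -0.01 (9 regions). Around Lhfp 8 of 12 regions were more open in Xist nuclei (median 0.35; -0.20 in Y), around Fbln2 10 of 16 (0.15; 0.06 in Y) and around Col6a1 4 of 9 (-0.13; 0.16 in Y). Of the 64 higher genes 56 had a measured promoter region, 66 in all, and 49 of these were more open (median 0.14), where 41.0% of all promoter regions were, and for the lower genes 3 of 5 were more open (0.09). In oligodendrocytes 73 of 141 promoter regions of the higher genes and 86 of 177 of the lower genes were more open, beside 47.2% of all.

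Promoters more open over all granule nuclei held an AP-1 motif, the letters recognised by Fos and Jun dimers, in a larger share than all promoters measured; in Y nuclei the share was higher among those more closed. The motif was searched as TGANTCA on both strands in the RefSeq promoter windows of GRCm38.p6, which run from 250 bases before to 50 after each start. Windows that overlap a listed region with enough cut sites count as measured. Each window counts as 1 promoter, and the 32817 windows belong to 26994 gene symbols. Windows of the same gene can share a region and a match, as for Gm31608, so the counts below are not of separate regions. It stood in 69 of 402 promoters (17.2%) at least 1.5-fold more open, in 14 of 231 (6.06%) at least 1.5-fold more closed and in 679 of 14188 (4.79%) of all those measured; over all 32817 RefSeq windows it stood in 7.81%. In Xist granule nuclei the share was 14.9% (80 of 538) among those more open and 6.13% (32 of 522) among those more closed, beside 4.58% of all. In Y nuclei it was 7.25% (25 of 345) and 9.71% (34 of 350), beside 4.46%. In the excitatory class as a whole it was 16.4% (32 of 195) among those more open, 13.6% (11 of 81) among those more closed and 5.08% of all. Another 7 motifs were searched on both strands, and their shares over all granule nuclei are given among promoters more open, more closed and all measured. CRE (TGACGTCA) stood in 4.48%, 2.16% and 3.31%, EGR (GCGTGGGCG) in 0.746%, 1.30% and 1.19%, an E-box (CAGATGG) in 6.97%, 5.19% and 4.02% and NFI (TTGGCA) in 14.4%, 17.3% and 11.3%. PU.1 (GAGGAAGT) stood in 3.23%, 1.73% and 2.53%, SOX (ACAATGG) in 1.99%, 4.76% and 1.86% and CTCF (AGGGGGCGC) in 1.49%, 1.73% and 2.48%. A match is a description of the letters and no evidence that a factor was bound.

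Of those promoters 5 are printed because they show the motif in windows that were more open in granule nuclei, and 9430037G07Rik because its region was lower only in the library labelled global MAGL-KO; all 6 were chosen after their values were seen. Capitals mark the AP-1 match, sequences run 5' to 3' on the gene's own strand, and positions count from the start site, with -1 the base before it. The windows are Gm35551 chr17:84026272-84026571 (minus strand, match at -28), Gm38928 chr6:145977439-145977738 (minus, 28), Arpp21 chr9:112185900-112186199 (minus, -102), Creb5 chr6:53573124-53573423 (plus, -45), Adgrg1 chr8:94984149-94984448 (plus, 2 matches, the first at -141) and 9430037G07Rik chr9:88599194-88599493 (minus, no motif of those searched).
Gm35551: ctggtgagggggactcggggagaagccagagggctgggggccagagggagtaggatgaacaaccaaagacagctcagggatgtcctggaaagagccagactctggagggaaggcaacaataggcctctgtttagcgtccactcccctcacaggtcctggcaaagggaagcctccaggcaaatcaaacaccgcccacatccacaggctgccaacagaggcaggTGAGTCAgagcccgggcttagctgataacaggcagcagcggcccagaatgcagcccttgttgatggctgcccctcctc
Gm38928: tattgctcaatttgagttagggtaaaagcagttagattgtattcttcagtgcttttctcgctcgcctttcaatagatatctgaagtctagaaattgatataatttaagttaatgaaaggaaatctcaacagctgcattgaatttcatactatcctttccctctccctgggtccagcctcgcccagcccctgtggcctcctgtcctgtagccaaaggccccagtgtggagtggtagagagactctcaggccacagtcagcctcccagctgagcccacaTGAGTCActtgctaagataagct
Arpp21: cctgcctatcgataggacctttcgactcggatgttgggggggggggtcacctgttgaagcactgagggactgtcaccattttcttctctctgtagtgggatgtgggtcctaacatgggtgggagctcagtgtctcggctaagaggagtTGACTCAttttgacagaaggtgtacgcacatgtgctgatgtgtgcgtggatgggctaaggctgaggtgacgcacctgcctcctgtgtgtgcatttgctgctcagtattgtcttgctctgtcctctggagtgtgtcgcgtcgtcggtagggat
Creb5: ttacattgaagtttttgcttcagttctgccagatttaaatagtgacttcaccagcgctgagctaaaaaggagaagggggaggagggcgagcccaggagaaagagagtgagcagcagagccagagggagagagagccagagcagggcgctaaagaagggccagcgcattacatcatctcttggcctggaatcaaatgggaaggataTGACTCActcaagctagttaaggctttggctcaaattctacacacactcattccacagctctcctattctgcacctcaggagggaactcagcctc
Adgrg1: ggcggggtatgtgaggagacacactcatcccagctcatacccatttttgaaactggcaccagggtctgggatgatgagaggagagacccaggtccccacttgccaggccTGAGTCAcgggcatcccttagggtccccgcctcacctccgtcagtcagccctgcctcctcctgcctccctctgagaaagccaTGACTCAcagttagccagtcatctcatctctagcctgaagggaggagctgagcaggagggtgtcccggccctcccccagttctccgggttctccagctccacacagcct
9430037G07Rik: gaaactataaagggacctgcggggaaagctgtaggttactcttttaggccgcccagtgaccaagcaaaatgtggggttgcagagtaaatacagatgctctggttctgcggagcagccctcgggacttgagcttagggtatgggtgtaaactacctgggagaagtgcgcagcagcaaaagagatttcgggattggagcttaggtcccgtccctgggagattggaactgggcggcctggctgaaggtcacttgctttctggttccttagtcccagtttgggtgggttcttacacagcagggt

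The region over the Gm35551 window went from 2.77 to 7.89 cut-site CPM in granule nuclei (log2 ratio 1.51 [1.03, 2.02]; 2.25 in Xist, -0.98 in Y nuclei). That over Gm38928 went from 6.69 to 15.2 (1.19; 1.89 and -1.26). Both are gene models, and no UMI of Gm35551 was counted in the granule nuclei of either library. Arpp21, a marker of excitatory neurons that encodes a phosphoprotein regulated by cyclic AMP, had the window go from 3.67 to 7.46 (1.02; 1.67 and 0.32) while its RNA did not follow (-0.10). The window of Creb5, a transcription factor gene, went from 7.47 to 11.9 (0.67; 1.67 and -0.20) and that of the adhesion receptor gene Adgrg1 from 4.76 to 7.70 (0.69; 1.09 and -0.20).

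The region over the 9430037G07Rik promoter, chr9:88599129-88600055, was low in the library labelled global MAGL-KO alone among the 5. In excitatory neurons it had 16.9, 17.4, 18.5, 18.3 and 4.57 cut-site CPM on the scale of all peaks of a library, a log2 ratio of -1.90 [-2.09, -1.71] over shared regions, with -2.24 in Xist and -1.36 in Y nuclei. Granule neurons had 16.4 and 3.81 (-2.08). It lies in the same stretch of chromosome 9 as Zfp949 and Mthfs. Of 13 genes measured in excitatory neurons between 86 and 92 Mb there, Ube2cbp, Zfp949 and Mthfs were higher by 0.5 or more on the log2 scale, as were 1.45% of all measured genes, none was lower by as much, and the other 10 lay between -0.21 and 0.34; the window and Ube2cbp were chosen after the values were seen.

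Other regions stood apart in all 3 libraries labelled MAGL-KO. In excitatory neurons chr19:5406299-5407066, over the promoter of 4930481A15Rik, had 3.67, 2.58, 10.6, 11.1 and 12.2 cut-site CPM (2.27 [2.00, 2.54]). The exonic region of Gm49330 at chr12:17992366-17993279 had 9.76, 11.9, 2.41, 3.32 and 3.13 (-1.89), and the intergenic chr13:45354659-45355565, near Mylip, 5.11, 6.43, 2.18, 2.00 and 1.66 (-1.93). The intron of Snd1 at chr6:28929104-28929980 had 2.08, 0.509, 1.56, 2.02 and 3.30 (2.73), and there 5xFAD was the low library. The intergenic region chr9:94294397-94295342 had 1.02 and 4.59 in the pair (2.20) and 0.744 in WT, and was not listed in the libraries labelled as conditional knockouts. In granule neurons the intergenic region chr6:47650543-47651441, near Ezh2, had 113, 113, 41.6, 40.4 and 37.0 (-1.58; -1.64 in Xist, -1.55 in Y nuclei). The intergenic chr1:147206748-147207684 had 2.82, 1.76, 9.11, 7.08 and 10.1 (2.55), with 3.76 in Xist and -0.30 in Y nuclei. The regions in granule neurons were chosen after their values were seen.

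A small group of genes differed in the same direction in most classes. Of 5468 genes measured in at least 4 of 6 classes 15 were higher and 19 lower with an interval off 0 in 4 or more. Among them Xist and Gm47283, higher, and Ddx3y and Uty, lower, lie on the sex chromosomes. The pair differed in sex makeup (above), and the part of this was not tested. Within Y nuclei of all classes together the log2 ratios were 0.63 at Gm47283, -0.67 at Ddx3y and -0.47 at Uty. Within Xist nuclei they were -0.07 at Xist and 0.01 at Gm47283. A gene could go the other way in a further class, as Erbb4 did, counted as higher but at -3.27 in microglia. The zinc finger gene Zfp949 was higher in all 6, by 0.78 in excitatory neurons, 1.08 in inhibitory neurons, 1.26 in oligodendrocytes, 1.55 in precursors, 1.48 in microglia and 1.32 in astrocytes. Over all nuclei it was at 42.0, 43.4, 43.9, 41.4 and 76.8 CPM, so that only the library labelled global MAGL-KO stood apart, in Xist (0.95) and Y nuclei (0.77). Its promoter region was not more open (-0.11 [-0.24, 0.02]). Ide was lower in all 6 classes, from -0.80 in excitatory neurons to -1.98 in astrocytes, with an interval off 0 in 5. Btaf1, a neighbour of Ide on chromosome 19 that encodes a regulator of the TATA-binding protein, was at 207, 237, 188, 228 and 164 CPM over all nuclei, and its promoter region chr19:36925698-36926613 had 71.3 and 39.7 cut-site CPM in excitatory neurons (-0.82). Mthfs was higher in excitatory and inhibitory neurons, while the interval included 0 in oligodendrocytes (99.0 and 111 CPM, 0.17 [-0.32, 0.65]), precursors (0.13 [-0.44, 0.70]), microglia (337 and 326 CPM, -0.05 [-0.55, 0.45]) and astrocytes (0.93 [-0.17, 2.02]); the difference between classes was not tested.

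**Figure D4:**
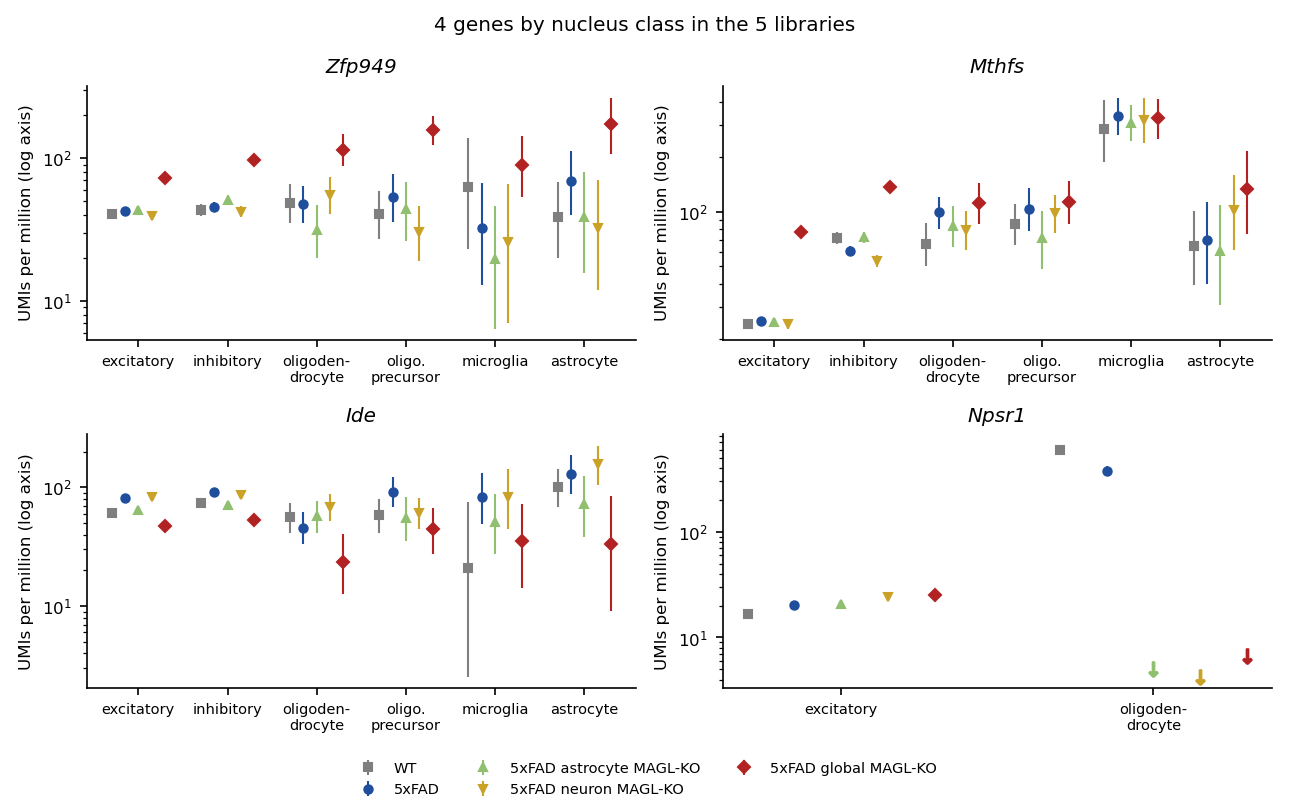
Levels (CPM, log axis) of Zfp949, Mthfs and Ide in 6 classes and of Npsr1 in 2 classes, in each of the 5 libraries; bars are exact 95% counting intervals and arrows mark 0 UMIs, drawn at the upper counting limit. Zfp949 is highest in the library labelled global MAGL-KO in every class, while Npsr1 has 0 UMIs in oligodendrocytes of the 3 libraries labelled MAGL-KO.

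In inhibitory neurons 18 of 8372 measured genes were 2-fold or more higher (0.215%) and 37 lower (0.442%). The lower genes were led by the zinc finger transcription factor genes Zic1, Zic4 and Prdm16. Zic1 was at 12, 23.2, 12.8, 19.3 and 1.72 CPM (-3.75 [-4.46, -3.12]), and nuclei with a Zic1 UMI were 22.3% of 5xFAD and 1.75% of the other library's inhibitory nuclei, at a median depth of 21386.5 and 17268.5 UMIs. Excitatory nuclei, at 17011 and 14676 UMIs, had shares of 0.173% and 0.0774%. Thinned to 1000 UMIs, 10 of 476 and 1 of 572 inhibitory nuclei had a Zic1 UMI. Zic4 was at 19.2 and 1.96 CPM (-3.29), Prdm16 at 41.4 and 3.68 CPM (-3.49), Tmem163 at 30.7 and 6.22 CPM (-2.30) and the chloride channel gene Ano1 at 59.7 and 12.7 CPM (-2.23). All 5 had larger negative ratios in Y nuclei than over all nuclei, from -4.82 at Prdm16 to -2.64 at Ano1. In Xist nuclei Zic1 had 3 UMIs in each library and Zic4 4 and 6, while the log2 ratios were 0.43 at Prdm16, 0.26 at Tmem163 and -0.75 at Ano1. Prdm16 was at 74.9 and 2.65 CPM in Y nuclei, and at 3.21 and 4.34 CPM in Xist nuclei. At the other end were Ebf1, a transcription factor gene (10.4 and 29.6 CPM, 1.51; -0.24 in Xist, 3.30 in Y nuclei), the neurexophilin gene Nxph2 (1.40), Agbl1 (1.30), the imprinted gene Ndn (1.27) and Mthfs (60.9 and 136 CPM, 1.16). Cluster n20, in which 17.7% of nuclei had both Xist and Y-linked UMIs, held 154 of 476 inhibitory nuclei of 5xFAD and 98 of 572 of the other library, and without it 25 genes in place of 55 were past 2-fold.

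Of 12 measured interneuron peptide and marker genes 11 had a ratio above 0 in inhibitory neurons, 7 of them with an interval above 0 beside 16.8% of all genes, and none below it beside 15.2%, with a median of 0.28. Somatostatin, Sst, was at 193 and 322 CPM (0.73), the serotonin receptor gene Htr3a had a ratio of 1.01, Reln 0.46 and Npy 0.36. The median was 0.37 in Y nuclei, -0.24 in Xist nuclei and 0.06 without cluster n20. Beside this, excitatory markers in inhibitory nuclei summed to 2268 and 1848 CPM and CA1 markers to 1114 and 857 CPM, inhibitory markers to 11937 and 15394 CPM, and nuclei with UMIs of both sexes were 16.0% and 11.0%; their part in the result was not tested. Nr4a3 (-0.77) and Nr4a1 (-0.66), the 2 immediate early genes measured, were lower. In inhibitory neurons 3.12% of 67316 regions were 2-fold more open and 3.86% more closed.

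In oligodendrocytes 200 of 7154 measured genes were 2-fold or more higher (2.8%) and 210 lower (2.94%), from a median of 67 UMIs a gene over the pair, compared with 5891 in excitatory neurons; 139 and 95 of them had a counting interval off 0. Rhoj, encoding a small GTPase, was at 44.0, 44.8, 132, 113 and 231 CPM (2.37 [1.86, 2.90]), high in all 3 libraries labelled MAGL-KO. Sgk1, encoding a glucocorticoid-induced kinase, was at 26.1, 45.8, 164, 23.0 and 142 CPM (1.63), high in the libraries labelled astrocyte and global MAGL-KO and low in the other 3. Its promoter region, chr10:21994115-21995021, went from 73.9 to 139 cut-site CPM (0.86). Tmtc2 went from 264 to 662 CPM (1.33).

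Npsr1, encoding the neuropeptide S receptor, was absent from the oligodendrocyte counts of all 3 libraries labelled MAGL-KO. It had 503, 360, 0, 0 and 0 UMIs, or 598 and 375 CPM in WT and 5xFAD, where 147 of 309 and 81 of 302 nuclei had a UMI, against 0 of 305, 262 and 215 nuclei; 0 of 215 allows a share of up to 1.40% with a UMI. Thinned to 1000 UMIs the counts were 57 of 299 nuclei in 5xFAD and 0 of 212 in the library labelled global MAGL-KO. No microglial nucleus of the pair, 85 and 95 in number, had an Npsr1 UMI. Taking 3 UMIs as the most that a count of 0 allows, the library labelled global MAGL-KO was lower by at least 6.10 on the log2 scale. In excitatory neurons the gene was at 16.7, 20.2, 20.6, 24 and 25.1 CPM, without such a division. The co-chaperone gene Dnaja1 (-1.26), Rhoa (-1.06) and the stress-induced gene Sesn1, at 174 and 83.8 CPM (-1.05), were the other lower genes by rule.

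Of 12 measured genes of disease-associated oligodendrocytes 9 were higher, Sgk1, Serpina3n (1.57) and Klk6 (1.47) by 2-fold or more, and 6 had an interval above 0 beside 5.3% of all genes, with a median of 0.29; the medians were 0.03 in Xist and 0.04 in Y nuclei. C4b, a complement gene of this state, was at 4.75, 143, 187, 242 and 166 CPM, high in all 5xFAD libraries. The 17 myelin genes had a median of -0.03. In oligodendrocyte nuclei excitatory markers summed to 66.7 and 115 CPM, precursor markers to 64.6 and 122 and choroid plexus and ependyma markers to 29.2 and 82.0. Inhibitory markers summed to 3784 and 3430 CPM and astrocyte markers to 160 and 146. The part of other cells' markers in the result was not tested. Of 13391 regions 1.21% were 2-fold more open and 2.27% more closed. The intronic region chr4:142756106-142757046 in 6330411D24Rik had 15.7, 24.4, 96.3, 109 and 113 cut-site CPM (2.16). The merged region chr3:127172697-127173767 in an intron of Ank2 had 44.5 and 2.96 (-3.96). Within it the listed width was 524 bases in 5xFAD and 614 in the other library, and these covered mostly different bases. Its ratio therefore does not compare the same stretch of DNA.

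In oligodendrocyte precursors 2.72% of 6261 genes were 2-fold higher and 2.33% lower. By rule the genes beside Zfp949 (53.7 and 158 CPM) were the importin gene Kpna3 (1.11, but -0.13 with nuclei thinned to 1000 UMIs), AC149090.1, a gene on an unplaced scaffold (1.00), and Scel (0.93). Dach1, a developmental transcription regulator gene, went from 209 to 90.4 CPM (-1.21), followed by Etv5 (-0.87), Swt1 (-0.81) and Nfkb1 (-0.79).

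In microglia, as named from clusters, most measured genes of the disease-associated program had a ratio below 0, though not with nuclei assigned by marker score (below). The program is the set of lipid-handling, lysosomal and phagocytic genes that microglia around amyloid plaques express. Of 24 measured members 21 were lower, 9 with an interval below 0 beside 4.26% of all genes, and none had one above it, beside 4.31%; the median was -0.40. Csf1 (-1.34), Cst7, at 235 and 95.2 CPM (-1.30), and Cd52 (-1.16) were 2-fold or more lower, where 165 of 4198 genes were (3.93%; 3.26% were 2-fold higher). Apoe, encoding the main lipid carrier of brain, was at 63.0, 7038, 3221, 7859 and 3733 CPM (-0.91), from 1526 and 745 UMIs in the pair. It was thus near the floor in WT, and within 5xFAD lower in the libraries labelled astrocyte and global MAGL-KO than in the other 2. The ratio in microglia was -0.33 in Xist and -1.60 in Y nuclei. Outside microglia Apoe had ratios of -0.99 in inhibitory neurons, -0.39 in precursors, -0.20 in oligodendrocytes and -0.13 in astrocytes, so that 4 of the 5 classes measured had an interval below 0; over all nuclei, whose mix of classes differed, the ratio was -1.06. Ank (-0.83), Cd9 (-0.65), Ctsb (-0.47), Ctsd (-0.44), Ctsz (-0.41) and Trem2 (-0.40) were lower too, while Lpl (0.29), Ctsl (0.27) and Axl (0.12) were not. In Xist nuclei the list median was -0.14 and in Y nuclei -0.54, and with nuclei assigned by their highest marker score instead of by cluster it was 0.21. The class joins 2 clusters: g5, which has Apoe and Ctsd among its top genes and held 0 WT nuclei, held 54 of 85 microglia in 5xFAD and 50 of 95 in the other library, while g6 held 31 and 45; the part of this split in the list was not tested.

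Homeostatic microglial genes did not differ in one direction: of 18, 11 were higher, with a median of 0.06. Interferon-response genes were lower in 10 of 12 measured, with a median of -0.39 (-0.28 in Xist, -0.18 in Y nuclei). Only 2 of them had an interval below 0, beside 4.26% of all genes. By 2-fold or more 2 were lower, Parp14 (-1.13) among them. Complement genes had a median of 0.12, with 0.39 in Xist and -0.18 in Y nuclei. By rule the lowest genes were Trps1, at 31.5, 383, 205, 282 and 165 CPM (-1.21), the catenin gene Ctnna3, at 0, 392, 630, 821 and 185 CPM (-1.08), the collagen prolyl hydroxylase gene P4ha1 (-1.02) and the lysosomal sulfatase gene Arsb, at 978 and 486 CPM (-1.01). The highest were Heatr5a (0.95), Mctp1 (0.88), Osbpl9 (0.88) and Anapc15 (0.85). In these nuclei vascular markers summed to 360 and 115 CPM (5 and 3 of 10 with a UMI, with Cldn5, Rgs5, Pdgfrb, Col1a2 and Slco1a4 at 0) and oligodendrocyte markers to 397 and 160 CPM (10 and 7 of 11, Mog at 0); their part in the result was not tested.

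**Figure D5:**
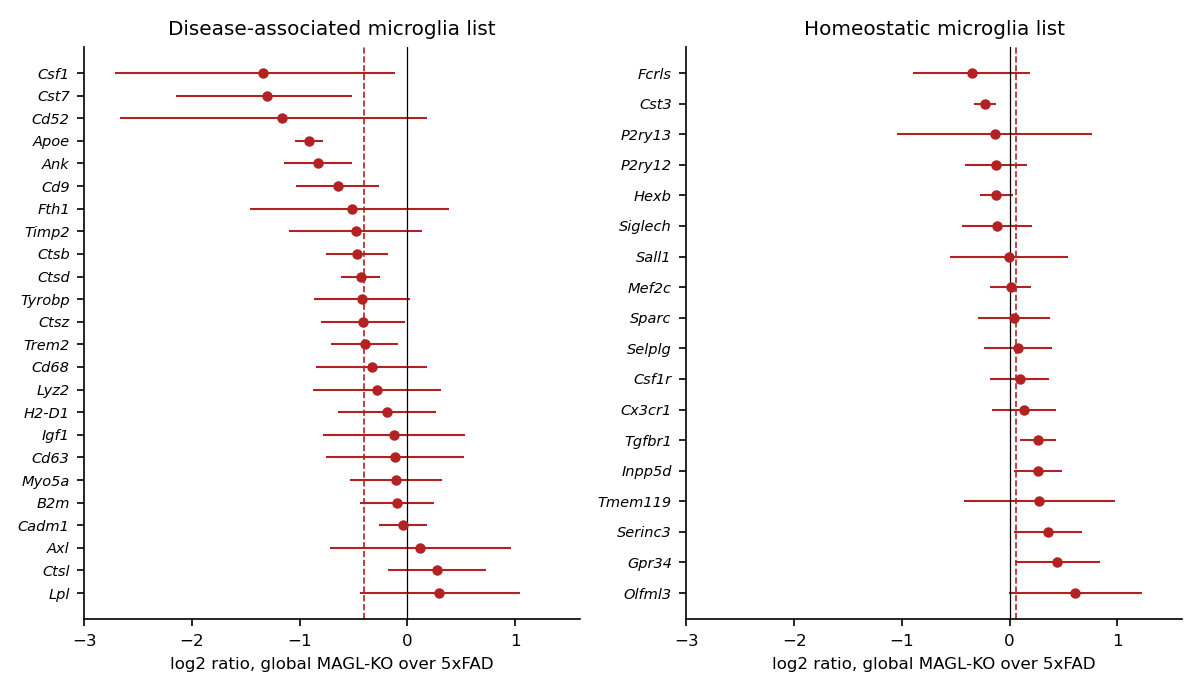
Log2 ratio of the library labelled global MAGL-KO over 5xFAD for each measured gene of the microglial lists; bars are 95% counting intervals and the dashed line is the list's median. In the disease-associated list 21 of 24 genes lie below 0 (median -0.40), and in the homeostatic list the median is 0.06.

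In astrocytes, with 45 and 32 nuclei, 3.91% of 3271 genes were 2-fold higher and 6.48% lower. In these nuclei inhibitory markers summed to 782 and 1365 CPM and precursor markers to 1191 and 1564. Granule markers summed to 1438 and 1100 CPM, excitatory markers to 343 and 232 and vascular markers to 243 and 108. Nuclei with UMIs of both sexes were 8.89% and 3.1%, and the part of all these in the results was not tested. The cystine-glutamate antiporter gene Slc7a11 went from 408 to 877 CPM (1.10), followed by Mcc (0.95), Setbp1 (0.87) and Mapk4 (0.85). The adenylyl cyclase gene Adcy2 went from 969 to 397 CPM (-1.29), followed by the thyroid hormone transporter gene Slco1c1 (-1.22), the oxysterol hydroxylase gene Cyp7b1 (-1.04) and Elp4 (-0.92). Of 14 homeostatic astrocyte genes 12 were higher, with 6 intervals above 0 beside 4.8% of all genes and a median of 0.15 (0.64 in Xist, -0.02 in Y nuclei). Kcnj10, a potassium channel gene, had a ratio of 1.21 and Trpm3 0.55. With nuclei assigned by marker score the median was -0.29. The 9 measured genes of disease-associated astrocytes had a median of -0.07, with -0.43 in Xist and -0.68 in Y nuclei. Of them 6 were lower, 1 with an interval below 0 beside 4.59% of all genes.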

How the data were processed

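The authors deposited counts per nucleus for 5 libraries, UMIs per gene and transposase cut sites per peak, made with Cell Ranger ARC 2.0.0 per the file headers, on mm10 per the submitters' processing notes, which also name Seurat. For the aligner no source used here gives a name. Peaks were listed separately in each library. Feature start positions as deposited (a column of other values) served as coordinates.

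Kept nuclei had at least 500 genes and no more than 5% mitochondrial UMIs, and the highest doublet scores were removed at 0.8% per 1000 nuclei. The 5 libraries were clustered together (scanpy 1.11.5, 2000 variable genes, 40 components, 15 neighbours, Leiden resolution 1), and clusters were named from markers. A cluster stayed unnamed when over 35% of its nuclei had UMIs of both sexes, when its marker score was under 0.5 or when markers of another class led. UMIs were summed per class, and a gene counted as measured with at least 20 UMIs and a mean of 10 CPM. No pseudocount was added in ratios, but a count of 0 UMIs or cut sites was set to 3 before the ratio was taken. Regions are peaks merged over the pair. In each class the highest and lowest ratios were named among genes with at least 100 UMIs, a class CPM of at least 0.5 of that of all nuclei, and no mitochondrial, Xist, Y-linked or unnamed models. Excitatory genes were named also where both sexes' nuclei moved alike. Genes and regions said to be chosen after their values were seen fall outside this rule. Members and lists were chosen with earlier results of these data known. Ratios were tested on simulated data with known folds. Letters of regions outside promoters were not searched, since no genome sequence was used. Some genes of the lists are not reported here by name. Alternatives are given at the end.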

Additional observations from a re-analysis of the deposited data

Results flagged for a closer look

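In dentate granule neurons Lhfp had a log2 ratio of 4.39 in Xist nuclei and -0.87 in Y nuclei, a gap of 5.27, and Fbln2 had 3.77 and -1.60, a gap of 5.37. In inhibitory neurons the median over interneuron peptides and markers was -0.24 in Xist and 0.37 in Y nuclei, a gap of -0.61. In excitatory neurons the median over heat shock and chaperone genes was 0.13 in Xist and -0.29 in Y nuclei, a gap of 0.42. Each stands here because the nuclei of one sex moved one way and those of the other moved the opposite way. With 1 library a group these gaps were not tested.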

How the results depend on the processing

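No paired analysis was possible because there was only 1 library a group, and for the same reason no replicate could be left out. The genes past 2-fold depended on depth and on which nuclei were used. With 5 CPM added to both levels they numbered 10 in place of 21 in excitatory neurons, 34 in place of 55 in inhibitory neurons, 181 in place of 410 in oligodendrocytes and 179 in place of 316 in precursors. Without a filter on low values they were 1876 in excitatory, 1758 in dentate granule (68 with the filter) and 1815 in inhibitory neurons, 1706 in oligodendrocytes, 1801 in precursors, 1812 in microglia (302) and 1856 in astrocytes (340). Among genes with at least 100 UMIs they were 17 in oligodendrocytes, 6 in precursors, 4 in microglia and 12 in astrocytes. In Xist nuclei they were 55 in excitatory and 254 in granule neurons and 177 in astrocytes. In Y nuclei they were 11 in excitatory, 19 in granule and 165 in inhibitory neurons, 124 in microglia and 172 in astrocytes. By the mean over Xist and Y nuclei they were 12, 25 and 22 in excitatory, granule and inhibitory neurons, 148 in oligodendrocytes, 58 in precursors, 15 in microglia and 50 in astrocytes. With nuclei thinned to 1000 UMIs they were 37, 190 and 295 in excitatory, granule and inhibitory neurons, 242 in oligodendrocytes, 107 in precursors, 158 in microglia and 55 in astrocytes. With nuclei assigned by marker score they were 26 in inhibitory neurons and 762 in microglia. Without cluster n3 they were 16 in granule neurons, and without cluster n20 25 in inhibitory neurons.

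Among list medians, those that moved in excitatory neurons were anandamide enzymes, from 0.02 to 0.084 in Xist nuclei; cannabinoid receptors and partners, from 0.22 to 0.27 when thinned; and eicosanoid genes, from -0.24 to -0.090 in Xist nuclei, -0.069 in Y nuclei and -0.13 when thinned. Immediate early genes went from -0.42 to -0.22 in Y nuclei and -0.28 when thinned, glutamate receptors from 0.02 to -0.0051 with size factors, and cholesterol synthesis from -0.09 to 0.048 in Xist and -0.22 in Y nuclei. Heat shock genes went from -0.16 to 0.13 in Xist nuclei, -0.29 in Y nuclei and -0.10 by their mean. Circadian genes went from -0.13 to -0.27 in Xist and -0.0024 in Y nuclei, and amyloid genes from 0.05 to 0.12 and -0.040. Immediate early genes went from 0.02 to -0.23 when thinned in granule neurons, and in CA3 neurons from -0.68 to -0.29 by marker score and -0.081 when thinned. Late activity genes in granule neurons went from 0.56 to 1.06 in Xist nuclei, -0.15 in Y nuclei, 0.36 by their mean, 1.12 when thinned and -0.026 without cluster n3. Interneuron genes went from 0.28 to -0.24 in Xist nuclei, 0.075 by marker score and 0.057 without cluster n20. By marker score disease-associated microglia genes went from -0.40 to 0.21, homeostatic microglia genes from 0.06 to 0.57, complement genes from 0.12 to 0.62, myelin genes from -0.03 to -0.27 and homeostatic astrocyte genes from 0.15 to -0.29 (0.64 in Xist nuclei).

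The log2 ratio of class shares moved for excitatory neurons, from 0.07 to -0.0036 in Xist nuclei, and for inhibitory neurons, from -0.24 to 0.00056 by marker score and 0.12 in Xist nuclei. It moved for oligodendrocytes, from -0.99 to -1.26 with at least 1000 genes a nucleus and -1.80 in Y nuclei, and for precursors, from -0.37 to -0.84 in Y nuclei. Regions past 2-fold in excitatory neurons went from 1876 to 1070 with at least 200 cut sites, 8608 in Xist and 3178 in Y nuclei. In granule neurons they went from 5956 to 730, 11219 and 3116. In oligodendrocytes they went from 466 to 3 with at least 200 cut sites and to 944 when scaled to nuclei. Turned signs are listed for the named regions and for named genes past 2-fold only. Signs turned in Y nuclei of granule neurons for Col6a1 (-1.03), Fbln2 (-1.60), Lhfp (-0.87) and chr1:147206748-147207684 (-0.30). In Y nuclei of excitatory neurons they turned for Penk (-0.019) and chr12:104027840-104028708 (-0.28), and in Y nuclei of oligodendrocytes for chr7:127903728-127904634 (-0.049). They turned in Xist nuclei of inhibitory neurons for Ebf1 (-0.24), Prdm16 (0.43) and Tmem163 (0.26), and when thinned for Kpna3 in precursors (-0.13). Over all named genes, also those below 2-fold, the direction held for 68 of 72 values in Xist nuclei and 67 of 72 in Y nuclei. It held for 70 of 73 by marker score and 72 of 73 when thinned. Apart from settings that use fewer nuclei, genes or UMIs by construction, the cause was not tested. For Mgll the marker-score assignment moved the ratio by less than its counting interval in 7 classes, though its sign turned in microglia (-0.14 to 0.27) and astrocytes (0.27 to -0.076). Counts of regions listed in 1 library alone stayed within 1.5 times. Leaving out cluster n3 or n20, and the counts of granule regions, were chosen after the data were seen.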

Other observations

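Further gene groups in excitatory neurons gave mixed results. Of 20 glutamate receptor genes 10 had an interval above 0 and 7 one below it, beside 34.8% and 20.5% of all genes, with a median log2 ratio of 0.02. Of 20 nuclear-encoded respiratory chain genes 3 and 5 did, with a median of 0.00. Of 14 GABA receptor and synthesis genes 10 were lower, 9 with an interval below 0 and 4 with one above it, with a median of -0.10. Core clock genes, which set daily rhythm, were lower in 12 of 15, 11 with an interval below 0 beside 20.5% of all genes, with Cry1 at -0.43 and Nr1d2 at -0.25. Their median was -0.13, with -0.27 in Xist and -0.0024 in Y nuclei. Among chaperones 8 of 9 were lower, 7 with an interval below 0, with a median of -0.16 (0.13 in Xist, -0.29 in Y nuclei). Hsph1 (-0.39) was lowest and Hspa5, of the endoplasmic reticulum, was the higher one (0.41).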
